A study of Drosophila melanogaster with 4 samples.

Results

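The euchromatic interior of arm 2L held 881 of the 10603 regions in which Su(var)3-7 was enriched in the combined list of 2 replicates, or 8.31% of them. The interior was defined by position alone, as the enriched regions on 2L whose midpoint lay between 1000001 and 18011544 of FlyBase release 5. It therefore leaves out the 1 Mb next to the telomere and the 5 Mb next to the centromere, and it spans 17.0 Mb. On the distal side the last region outside the interval lay at 941550 to 942917 (score 0.326) and the first inside at 1005694 to 1008728 (0.945). On the proximal side the last region inside lay at 17962291 to 17964247 (0.290) and the first outside at 18105695 to 18107309 (0.240).

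Su(var)3-7, a heterochromatin protein of the fly with several zinc fingers, owes its name to a genetic effect, since its loss suppresses position-effect variegation, the patchy silencing of a gene placed next to heterochromatin. It associates with heterochromatin protein HP1 and is known mainly from pericentric chromatin. The interior of an arm such as 2L is gene-rich euchromatin, so its regions are described here one by one and in runs, by size, spacing, score and repeatability.

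Its positions were read by ChIP-seq (immunoprecipitation of crosslinked chromatin, then sequencing) with antibody Q3448. The material was whole embryos of the wild-type fly strain Oregon-R, 14 to 16 h old, crosslinked with 1.8% formaldehyde. The 2 ChIP libraries each had an input library of unprecipitated genomic DNA as control, per the labels, and all 4 libraries share genotype, stage and fixation. Whole embryos mix all cell types, so a region may stand for a few cells or for many. Nothing in the labels ties the replicates to separate collections of embryos, so the spread between them may be technical. Read depth is unknown, because the lists hold regions without read counts.

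Enriched regions were short and scattered over the interior. Replicate 1 listed 362 regions over 0.794 Mb, which is 4.67% of the interval. Replicate 2 listed 406 regions over 0.917 Mb, which is 5.39%. Averaged over the replicates, 384 ± 31.1 regions covered 5.03% ± 0.511 of the bases (SD, n = 2). The combined list, which the authors deposited for the pair, was larger, with 881 regions over 1.93 Mb, or 11.4%. Regions were found at a density of 22.6 ± 1.83 per Mb in the replicates (SD, n = 2) and 51.8 per Mb in the combined list.

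Most regions measured between 1 and 3 kb. The median width was 1867.5 bp in replicate 1, 1910 bp in replicate 2 and 1731 bp in the combined list. The quartiles of the combined list were 1305 and 2474 bp, and the widest region had 14869 bp. Only 48 of the 881 regions (5.45%) were wider than 5 kb. The 3 lists differed at the narrow end, where the combined list reached down to 1001 bp and the replicate lists to 1305 and 1303 bp.

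The score of a region is a single number deposited by the authors, whose scale and log base no source used here gives, so a difference in score has no known unit and levels are not compared between lists. Scores in the interior were low for their list. In the combined list the median was 0.381, against 0.433 over all of its regions. Replicate 1 had 0.520 against 0.628, and replicate 2 had 0.633 against 0.718. This was not particular to 2L. The interiors of 3L and 3R, cut in the same way, had combined medians of 0.382 and 0.380. Their medians were 0.524 and 0.515 in replicate 1, and 0.626 and 0.619 in replicate 2. A score above 1 was given to 15 combined regions (1.70%), and 13 of these overlapped both replicates.

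Coverage was uneven along the interior, with 3 megabases that stood above the others in both replicates. It was highest from 6000001 to 7000000, where replicate 1 covered 8.60% and replicate 2 covered 11.1% of the bases, a mean of 9.85% ± 1.76 (SD, n = 2). The megabase from 14000001 to 15000000 followed with 8.02% and 8.95%, and that from 5000001 to 6000000 with 7.52% and 7.09%. These 3 bins made up 17.6% of the interval and held 30.0% of the covered bases, averaged over the replicates.

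The 4 bins of lowest coverage lay apart from one another. The lowest of all was the most proximal, from 17000001 to 18011544, with 1.96% and 2.43%, a mean of 2.19% ± 0.337. The highest bin therefore had 4.49 times the coverage of the lowest. The bin from 7000001 to 8000000 lies directly beside the best covered one, yet its values were 2.12% and 2.75%. It held 53 combined regions, of which 7 overlapped both replicates and 35 overlapped neither. In the whole interior 265 of 881 (30.1%) overlapped both and 427 (48.5%) neither.

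The replicates gave nearly the same order of the 17 bins. Their covered percents had a Spearman rho of 0.951 and a Pearson r of 0.956 over bins of the same 2 libraries, given as a description because neighbouring bins are not independent. Replicate 2 covered more than replicate 1 in 14 of the 17 bins. Within the interval, coverage was not higher on the centromere side. The distal 8.51 Mb were covered over 5.03% in replicate 1 and 5.91% in replicate 2, and the proximal 8.51 Mb over 4.31% and 4.87%. The difference had the same sign in both replicates and was about as large as the distance between the replicates on the distal side.

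**Figure D1:**
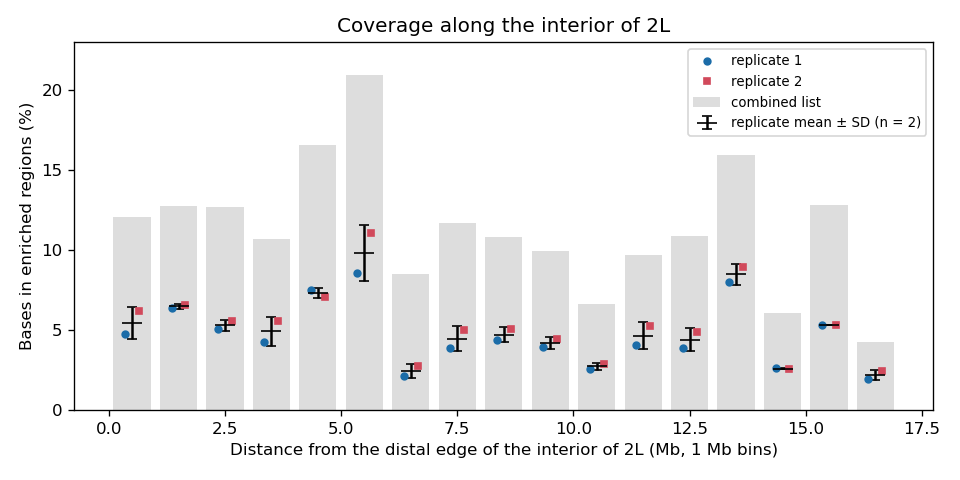
Bases in enriched regions (percent, y axis) in 1 Mb bins of the interior of 2L against the distance from its distal edge (Mb, x axis); grey bars are the combined list, points are the replicates, and black marks give their mean and SD (n = 2). The bin from 5 to 6 Mb from the edge is highest at 9.85% ± 1.76, and the last bin is lowest at 2.19% ± 0.337.

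Replicate support divided the members into 4 classes. Of the 881 combined regions, 265 had at least 1 bp in a region of both replicates (30.1%, 95% Wilson interval 27.1 to 33.2), against 38.6% of all regions in the combined list. Another 73 (8.29%) overlapped replicate 1 alone, against 12.1% of all regions, and 116 (13.2%) replicate 2 alone, against 10.6%. The largest class, 427 regions (48.5%, 45.2 to 51.8), overlapped neither replicate, against 38.7% of all regions. These intervals reflect counting error alone and take regions as independent. The combined list was deposited for the same 2 replicates, so overlap with their lists is not an independent check of its regions.

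Regions in both replicates were wider and scored higher than the rest, although an overlap of 1 bp is met more easily by a wide region. Their median width was 2829 bp and their median score 0.503. Regions in neither replicate had medians of 1314 bp and 0.357. Regions in replicate 1 alone (1741 bp, 0.341) and in replicate 2 alone (1802.5 bp, 0.347) had scores close to those in neither. By bases, 48.5% of the covered sequence lay in the 265 regions with both replicates and 31.7% in the 427 with neither.

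Support rose with score mainly at the top of the list. Among the lowest quintile of combined scores 5.08% of regions overlapped both replicates, and the next quintiles gave 7.39%, 12.5% and 36.4%. In the highest quintile, with scores of 0.478 and above, it was 157 of 176 (89.2%, 83.8 to 93.0). By width the main rise came at the fourth quintile. None of the 353 regions in the 2 narrowest quintiles, up to 1522 bp, overlapped both replicates. The third quintile gave 9.66%, the fourth 63.6% and the widest 77.3%.

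Part of the unsupported class lay below the narrowest width found in the replicates. In the combined list 219 regions (24.9%) were narrower than 1303 bp, the width of the narrowest replicate region of the interior. Of these, 208 overlapped neither replicate and 0 overlapped both. Among the 662 regions at least that wide, 265 overlapped both (40.0%, 36.4 to 43.8) and 219 overlapped neither (33.1%, 29.6 to 36.8).

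**Figure D2:**
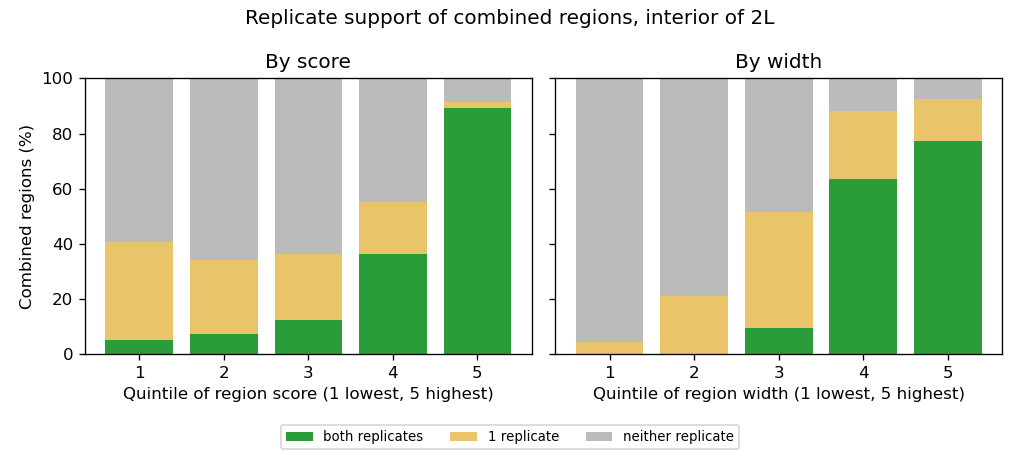
Share of combined regions of the interior of 2L (percent, y axis) that overlapped both replicates, 1 replicate or neither, by quintile of score (left) and of width (right). Support by both replicates reaches 89.2% in the top score quintile and is 0 in the 2 narrowest width quintiles.

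Width and score were not related in the same way over the whole range. Over all 881 regions Spearman's rho was 0.445, but it was -0.35 over the 556 regions under 2 kb and 0.229 over the 325 wider ones. The median score was 0.379 from 1 to 1.25 kb, 0.322 from 1.25 to 1.5 kb and 0.303 from 1.5 to 1.75 kb. It was 0.344 from 1.75 to 2 kb and stepped to 0.450 from 2 to 2.25 kb, beyond the highest score of the bin before (0.440). These bins were set after the plot of width against score had been seen.

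The step at 2 kb was also present in each replicate list. In replicate 1 the median score was 0.482 from 1.75 to 2 kb and 0.577 from 2 to 2.25 kb. In replicate 2 the corresponding medians were 0.564 and 0.684. Under 2 kb, rho was 0.0962 over 217 regions in replicate 1 and 0.00109 over 229 in replicate 2. These values cover a shorter range, because the replicate lists start at 1305 and 1303 bp. They hold no region from 1 to 1.25 kb, where the combined median was 0.379. From 1.25 to 1.5, 1.5 to 1.75 and 1.75 to 2 kb, replicate 1 had medians of 0.466, 0.433 and 0.482. Replicate 2 had 0.556, 0.546 and 0.564, and the combined list 0.322, 0.303 and 0.344. In the combined list under 2 kb, rho was -0.40 over the 396 regions in neither replicate, -0.06 over the 50 in replicate 1 alone, 0.287 over the 83 in replicate 2 alone and 0.430 over the 27 in both. These classes differ in range as well, since 208 of the 219 regions narrower than 1303 bp were in neither replicate. Replicate support changed at the same width, from 27 of 556 regions in both replicates under 2 kb (4.86%, 3.36 to 6.97) to 238 of 325 at 2 kb or more (73.2%, 68.2 to 77.8). What lies behind the step was not tested.

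**Figure D3:**
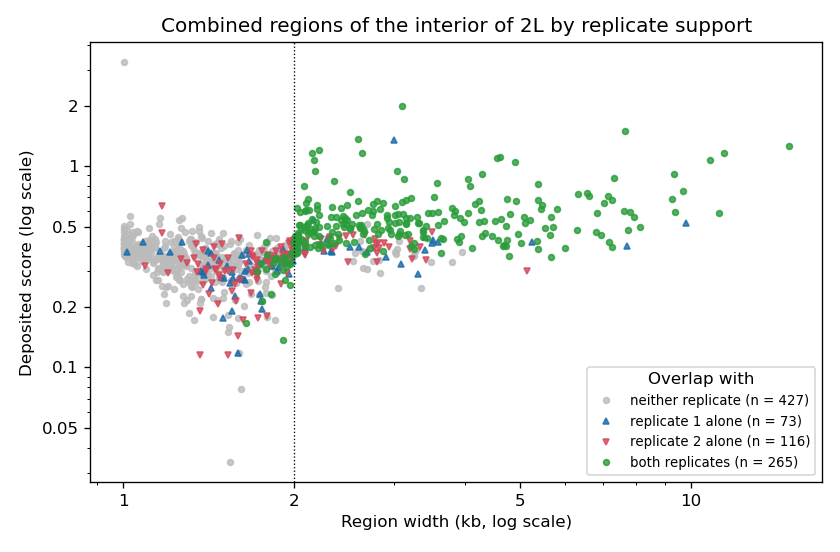
Deposited score (y axis, log scale) against width (kb, x axis, log scale) for the 881 combined regions of the interior of 2L, by overlap with the replicates; the dotted line marks 2 kb. Grey points (neither replicate, n = 427) gather under 2 kb, and green points (both replicates, n = 265) begin mostly at 2 kb. The highest point of all, at 3.28, is grey and 1002 bp wide.

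The highest score of the interior belonged to a region found in neither replicate. It lay at 10593315 to 10594316, had 1002 bp and a score of 3.28, and stood 40462 bp and 20407 bp from its neighbours. The next score in that class was 0.568. Its width was within 1 bp of the narrowest combined region (1001 bp), and no replicate region touched it.

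Regions held by both replicates gave a different order. The first was 4948509 to 4951603 (3095 bp), which ranked first in each replicate. Replicate 1 gave it 1.87, replicate 2 gave it 2.19, and its combined score was 2.00. The second was 2747692 to 2755337 (7646 bp), with scores of 1.53, 1.55 and 1.50 in the same order of lists, and ranks of 2 and 3 in the replicates. The third was 17494713 to 17497300 (2588 bp), with scores of 1.17, 1.55 and 1.36. It stood in the least covered megabase of the interior.

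The remaining 7 of the 10 highest scored between 1.10 and 1.26 in the combined list. They lay at 11999367 to 12014235, 14705293 to 14707507, 2193765 to 2205182, 12519365 to 12521517, 15497867 to 15500499, 5193999 to 5198601 and 16812585 to 16817140. All 10 were among the 15 highest of the interior in replicate 1 and in replicate 2. They were spread over 8 of the megabase bins, and their widths ran from 2153 to 14869 bp. Of the 10, 6 lay in clusters and 4 did not, and 14705293 to 14707507 stood 21189 bp and 143325 bp from its neighbours.

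The 5 widest regions in both replicates measured between 9673 and 14869 bp. The widest, 11999367 to 12014235, was a single region in each replicate too, of 13657 bp (score 1.20) and 13673 bp (1.42). The second, 2193765 to 2205182 (11418 bp), was divided into 2 regions in each replicate, the larger of 8622 and 8840 bp. The others were 6666689 to 6677901 (11213 bp, combined score 0.589), 14132597 to 14143401 (10805 bp, 1.08) and 16788670 to 16798342 (9673 bp, 0.754). Of the 48 regions wider than 5 kb, 44 overlapped both replicates and 0 overlapped neither.

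A few high-scoring regions were found in 1 replicate only. The highest of these, 5175681 to 5178675 (2995 bp), scored 1.35 in the combined list and 1.32 in replicate 1, where it ranked 3, and had no partner in replicate 2. It stood in a dense stretch: 78 bp separated it from the region before and 2 bp from the region after, and the latter, 5178678 to 5186293, overlapped both replicates. The highest-scoring region of replicate 2 alone was 7734547 to 7735714 (1168 bp), with scores of 0.894 in replicate 2 and 0.631 in the combined list.

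Between the replicates, 275 of 362 replicate 1 regions overlapped replicate 2 (76.0%, 71.3 to 80.1), against 75.8% of all its regions. In the other direction 280 of 406 replicate 2 regions overlapped replicate 1 (69.0%, 64.3 to 73.3), against 79.5% of all. Covered bases had a Jaccard index (bases in both lists divided by bases in either) of 0.520. Paired regions lay close together, with midpoints a median of 177.5 bp apart and within 500 bp in 208 of 275 pairs (75.6%). Their scores had a Spearman rho of 0.628 and their widths 0.574 over the 275 pairs.

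Sharing was most frequent among the highest scores. In replicate 1 it was 71 of 73 regions in the top quintile (97.3%, 90.6 to 99.2) and 46 of 73 in the lowest (63.0%, 51.5 to 73.2). In replicate 2 it was 74 of 81 (91.4%, 83.2 to 95.8) and 44 of 82 (53.7%, 42.9 to 64.0). Regions without a partner were narrower, with medians of 1480 bp against 1996 bp in replicate 1 and 1546 bp against 2078 bp in replicate 2. They lay within 10 kb of a region of the other replicate in 50 of 87 cases (57.5%) and 82 of 126 cases (65.1%). Distances of this size were common in general. Of all regions, 37.0% in replicate 1 and 31.8% in replicate 2 had no neighbour within 10 kb in their own list.

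The combined list took in nearly all replicate regions and joined some of them. It overlapped 361 of 362 replicate 1 regions and 400 of 406 replicate 2 regions. The 7 that it missed were 1303 to 1449 bp wide, and the highest of them, 1894729 to 1896177 in replicate 2, ranked 52 of 406 with a score of 0.810. Among the 265 regions in both replicates, 19 spanned 2 or more replicate 1 regions and 23 spanned 2 or more replicate 2 regions. The combined region was wider than its main replicate partner by a median factor of 1.30 in replicate 1 and 1.20 in replicate 2.

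Spacing was irregular in every list. The gap between neighbouring combined regions had a median of 5219.5 bp and a mean of 17075.7 bp, 3.27 times the median. Of 880 gaps, 184 (20.9%) were under 1 kb and 75 (8.52%) were over 50 kb. In the replicates the median gaps were 16630 bp and 12233 bp, and 26.9% and 24.4% of gaps exceeded 50 kb.

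Clusters were taken as runs of at least 5 regions with gaps of at most 10 kb. By this definition 435 of the 881 combined regions (49.4%, 46.1 to 52.7) lay in 53 clusters, which took up 13.1% of the interval. A cluster had a median of 7 regions and 35.8 kb, of which a median of 48.4% was covered. A further 140 regions (15.9%) had no neighbour within 10 kb. In the replicate lists 15.7% and 20.0% of regions lay in clusters, a mean of 17.8% ± 2.97 (SD, n = 2). Of the 265 combined regions in both replicates, 148 lay in the 53 clusters of the combined list. When clusters were sought anew among those 265 regions alone, with all others left out, the share was 3.77%. The combined list had 2.29 times as many regions as the mean replicate list, and the part of that number in its share was not tested.

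The largest cluster had 27 regions over 132.0 kb at 14430989 to 14562984, in the second best covered megabase. Replicate 1 covered 21.3% of it with 12 regions and replicate 2 covered 20.6% with 13. Of its 27 combined regions 9 overlapped both replicates and 14 neither, where the shares over the whole interior were 30.1% and 48.5%. The second, with 21 regions at 1101850 to 1186827, was covered over 19.2% and 29.5%, and it contained the largest cluster of replicate 2, 12 regions at 1118823 to 1185371. The other 3 of the first 5 were 2129902 to 2243739 (18 regions), 11960445 to 12065005 (18 regions) and 9937764 to 10011380 (14 regions). The widest region of the interior lay in the fourth of these clusters and the second widest in the third.

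Every cluster contained regions in neither replicate, and 49 of the 53 contained at least 1 in both. Regions in neither replicate made up 43.9% of the 435 regions in clusters, against 48.5% of all 881. Both replicate lists had regions in 51 of the 53 clusters, and neither had any in 1 of them. Replicate 1 covered a median of 19.7% of a cluster (0 to 50.5) and replicate 2 a median of 24.7% (0 to 51.1), with more in replicate 2 in 35 of 53. Overlap with both replicates was 34.0% (29.7 to 38.6) in clusters, 27.1% (22.4 to 32.4) in runs of 2 to 4 regions and 24.3% (17.9 to 32.0) for regions alone, with overlapping intervals and no test. Median widths in the same order were 1845, 1643 and 1539 bp, and the part of width in these shares was not tested. Neighbours resembled each other little: rho was 0.0718 for scores and 0.0875 for widths over 880 adjacent pairs.

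**Figure D4:**
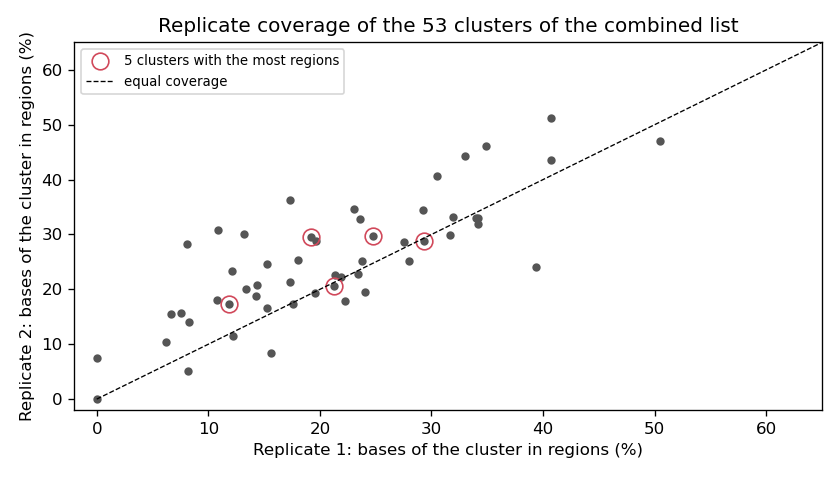
Percent of the bases of each of the 53 combined-list clusters covered by replicate 1 regions (x axis) and replicate 2 regions (y axis); red rings mark the 5 clusters with the most regions and the dashed line equal coverage. The points run from 0 to 50.5% and 51.1%, and 35 of 53 lie above the line.

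Much of the interior was free of regions over long stretches. In the combined list 36 stretches of at least 100 kb had no region, together 5.31 Mb or 31.2% of the interval. Of these, 28 were free of regions in both replicates as well. The other 8 were touched by replicate regions, 3 times by replicate 1 and 6 times by replicate 2, and 1 region lay wholly inside. The replicate 1 region at 4022814 to 4024674 touched the stretch on either side of it and was counted for each. The replicate lists had 47 and 53 such stretches, over 52.8% and 54.2% of the interval.

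The 5 longest all lay in the proximal 8.51 Mb and were empty in the 3 lists. They were 16910431 to 17248822 (338.4 kb), 11519212 to 11804360 (285.1 kb), 12110789 to 12340926 (230.1 kb), 16050732 to 16257930 (207.2 kb) and 13549795 to 13731924 (182.1 kb). The 104.6 kb cluster at 11960445 to 12065005, with the widest region of the interior, stood between the second and the third. The longest stretch of each replicate had other limits. In replicate 1 it was 449.7 kb at 9121552 to 9571285, where replicate 2 had 4 regions and the combined list 12. In replicate 2 it was 532.9 kb at 15753962 to 16286833, where replicate 1 had 3 and the combined list 11. The replicate 2 stretch contained 16050732 to 16257930, named above.

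Values of the corresponding interiors of 3L and 3R lay nearer to those of the interior of 2L than the values of the proximal 5 Mb of 2L did. Coverage in the replicates was 6.52% ± 0.337 on 3L and 5.39% ± 0.637 on 3R, against 5.03% ± 0.511 on 2L and 30.1% ± 2.47 in the proximal 5 Mb (SD, n = 2). Regions in neither replicate made up 45.7% on 3L, 46.7% on 3R and 31.7% in the proximal 5 Mb, against 48.5% in the interior of 2L. Stretches of at least 100 kb without a combined region made up 16.5% of 3L, 27.2% of 3R and 2.25% of the proximal 5 Mb, against 31.2% here. The fall of score with width under 2 kb had a rho of -0.34 on 3L and -0.36 on 3R, and of -0.13 over the 250 such regions in the proximal 5 Mb of 2L. All parts come from the same 2 libraries, and differences between them were not tested.

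**Figure D5:**
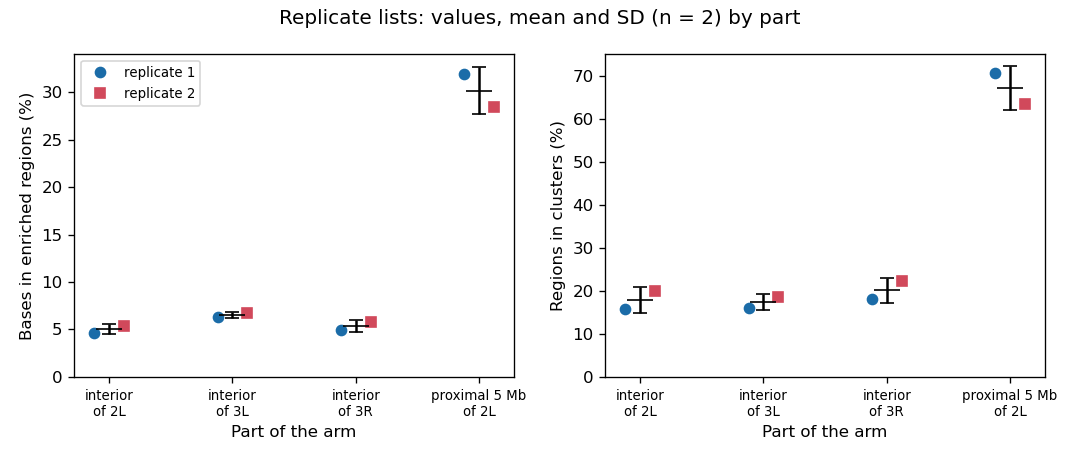
Percent of bases in enriched regions (left) and percent of regions in clusters (right) in the 2 replicate lists, for the interiors of 2L, 3L and 3R and the proximal 5 Mb of 2L; black marks give the mean and SD (n = 2). The 3 interiors lie between 4.67% and 6.76% covered, and the proximal 5 Mb between 28.4% and 31.9%.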

How the data were processed

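Region lists of 2 Su(var)3-7 ChIP libraries and a combined list of the pair were analysed. The 2 input libraries served as controls per the labels and have no values of their own here. Bowtie 0.12.7 is the aligner named by the submitters' processing notes, and coordinates are FlyBase release 5, per the file headers. For each region the authors deposited its limits and 1 score. No source used here states the region caller, its thresholds, its handling of repeats or how the combined list was built, and a fixed threshold or minimum width would decide which weak or narrow regions are listed.

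Regions on 2L with a midpoint inside the interval were taken. They do not overlap each other, so coverage is the sum of widths over the interval length. Overlap required 1 bp. Shares carry 95% Wilson intervals. Calculations used Python 3.11.15, pandas 2.3.3, numpy 2.4.6 and scipy 1.17.1, and the functions were tested on simulated regions with known answers. Because 2 replicates allow no useful test across samples, no p-value is given. Named regions are the 10 highest and 5 widest in both replicates, the highest of each other support class, the 5 largest clusters, the 5 longest empty stretches and the extreme bins. Other regions and bins and the 2 kb limit were singled out after their values were seen. The interval, its measures and these rules were chosen with earlier results of these data known. Gene names and sequences at these positions are not given, because the gene table used here follows release 6 and the regions follow release 5.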

Additional observations from a re-analysis of the deposited data

How the results depend on the processing

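Of 44 values under other settings, 16 moved by less than the spread set for them (the replicate SD, or a 95% interval for counting error) and 28 moved by more. Some of these outcomes were fixed in advance, so the tally is not a measure of stability. Single-replicate coverage lay within its spread by construction, because the SD came from the same values. Keeping the higher-scoring 50% of a list can only lower coverage and cannot shorten its longest empty stretch. Coverage was 4.67% to 5.39% with a single replicate and 3.11% in the higher-scoring 50% of each list. With 50% reciprocal overlap, which fewer regions can meet, 23.5% of combined regions matched both replicates and 52.7% neither, sharing was 66.9% in replicate 1 and 59.6% in replicate 2, and the width difference between regions in both and in neither fell from 1515 to 1137 bp. In the higher-scoring 50% of each list, sharing was 69.2% and 61.6%, and the longest empty stretch of the combined list was 526.0 kb. The partner list was cut too, so a region lost any partner that scored below the median of its own list. Sharing with the uncut lists was 97.3% and 91.4% in the top score quintiles of replicates 1 and 2. Merging regions under 1 kb apart raised the share in both replicates to 33.3%. Keeping combined regions at least as wide as the narrowest replicate region (chosen once the data had been seen) gave 40.0% in both, 33.1% in neither and a width difference of 1272 bp. Means in place of medians gave differences of 0.190 in score and 2100.9 bp in width.

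With 1 replicate left out, combined regions that overlapped the other made up 38.4% to 43.2% and those that did not 56.8% to 61.6%, since 1 list has to match in place of 2. Regions in clusters made up 22.5% with a gap of 5 kb, 71.2% with 20 kb, 69.8% with runs of 3 or more and 20.0% with runs of 10 or more. They made up 3.77% when clusters were sought among combined regions in both replicates alone, and 15.7% to 20.0% in a single replicate list. The longest empty stretch was 449.7 to 532.9 kb in a single replicate list. No paired analysis was possible because the inputs have no region lists of their own, so the groups that share replicate numbers could not be compared. Read depth is unknown, so its effect on the lists cannot be given.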
